A study of Homo sapiens with 6 samples.

Results

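Antisense transcript promoters were followed as gene names ending in -AS, with or without a digit, in lists of genes with an H3K4me3 peak in BE(2)-C cells. A name was taken if it stood in either peak list or in either promoter table, and 263 of the 16500 names in the files qualified. Each name was compared with its sense gene, the name before -AS. The H3K4me3 libraries came from cells given WDR5 siRNA-1 or a control siRNA for 24 hours, 1 library each. BE(2)-C is an established MYCN-amplified human neuroblastoma line, and WDR5 is a core subunit of the complexes that methylate lysine 4 of histone H3. IgG and input libraries, 2 of each, were sequenced beside them and are not analysed here. The lists give a name where a peak lay within 1 kb of a transcription start site (TSS), without height, read number or depth. With a single library behind each list, replicate error is unknown and no test between the siRNAs was possible. An absent name is an absent call, not a measured absence of H3K4me3.

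H3K4me3 is the trimethyl mark found over the starts of transcribed genes. Many genes have a second transcript that starts near their promoter and runs the opposite way, or that starts inside the gene and reads back across it. Such antisense RNAs are mostly non-coding, and some act on the gene they overlap. Where the starts of an antisense RNA and its sense gene lie close together, they can share a nucleosome-depleted region, and a single H3K4me3 peak can fall in the window of both names.

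The names fitted the label of antisense non-coding RNAs in most cases. In the current RefSeq annotation, 200 of the 263 names were found as symbols and 62 through a synonym. Of them 251 were long non-coding RNAs, 4 were antisense RNAs, 4 were transcribed pseudogenes and 3 were protein-coding. RefSeq now gives 34 of the names a symbol ending in -DT, for divergent transcript, a neighbour that starts beside the sense promoter and reads away from it, while 212 still end in -AS. For 184 names the RefSeq promoter table (GRCh38.p14) held starts of both the antisense RNA and its sense gene, and in all 184 the strands were opposite. Neither promoter table of the series held an antisense name, among 9585 promoters, and neither held a LINC name, so every antisense name entered through the peak lists and none could be counted as unlisted in both. Of 12 adrenergic neuroblastoma markers 10 were in both lists and 2 (TH and DBH) only in the control list. Of 18 markers of Schwann, blood, epithelial, liver and muscle cells, 16 were in neither list, ERBB3 was in both and KRT18 only in the control list.

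Start windows of 8 antisense RNAs are printed as examples of pairs with starts within 1 kb. Each is the RefSeq window (GRCh38.p14) of 250 bases before and 50 bases from the start, printed 5′ to 3′ on the antisense strand. Capitals mark the stretch that also lies in the window of the sense gene, read from its other strand. In SH3RF3-AS1, which shares no stretch, capitals mark the E-box CACGTG. The first 4 are the pairs with starts within 1 kb whose calls differed and whose sense gene is named in the files. ARRDC3-AS1 was in both lists while ARRDC3 was only in the WDR5 siRNA list, LIPE-AS1 was in both lists while LIPE was in neither, LPP-AS2 was only in the control list while LPP was in neither, and SH3RF3-AS1 was only in the control list while SH3RF3 was in both.
ARRDC3-AS1 (chr5:91380097-91380396, + strand): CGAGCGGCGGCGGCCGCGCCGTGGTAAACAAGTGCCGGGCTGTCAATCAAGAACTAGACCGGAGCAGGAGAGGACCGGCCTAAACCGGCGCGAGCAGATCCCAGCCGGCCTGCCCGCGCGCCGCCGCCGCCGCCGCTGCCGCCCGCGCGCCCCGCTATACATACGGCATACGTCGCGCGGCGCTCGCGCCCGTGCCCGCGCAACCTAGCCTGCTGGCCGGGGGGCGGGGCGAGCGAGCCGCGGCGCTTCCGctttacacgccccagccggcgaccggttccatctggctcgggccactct
LIPE-AS1 (chr19:42423505-42423804, + strand): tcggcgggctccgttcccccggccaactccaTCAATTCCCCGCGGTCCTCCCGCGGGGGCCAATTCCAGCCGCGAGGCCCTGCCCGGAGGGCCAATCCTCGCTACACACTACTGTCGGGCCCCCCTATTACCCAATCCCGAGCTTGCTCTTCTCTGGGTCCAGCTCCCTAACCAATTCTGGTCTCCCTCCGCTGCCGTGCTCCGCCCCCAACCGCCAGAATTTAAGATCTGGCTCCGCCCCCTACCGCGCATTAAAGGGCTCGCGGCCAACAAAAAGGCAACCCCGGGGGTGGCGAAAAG
LPP-AS2 (chr3:188154039-188154338, - strand): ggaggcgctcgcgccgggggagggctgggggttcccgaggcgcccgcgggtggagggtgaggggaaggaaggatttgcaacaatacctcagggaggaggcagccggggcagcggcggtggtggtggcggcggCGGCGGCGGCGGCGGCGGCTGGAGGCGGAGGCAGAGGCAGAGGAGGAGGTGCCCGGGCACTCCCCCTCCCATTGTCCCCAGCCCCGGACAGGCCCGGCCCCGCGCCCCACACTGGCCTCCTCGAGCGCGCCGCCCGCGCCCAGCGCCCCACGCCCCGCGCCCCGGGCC
SH3RF3-AS1 (chr2:109130070-109130369, - strand): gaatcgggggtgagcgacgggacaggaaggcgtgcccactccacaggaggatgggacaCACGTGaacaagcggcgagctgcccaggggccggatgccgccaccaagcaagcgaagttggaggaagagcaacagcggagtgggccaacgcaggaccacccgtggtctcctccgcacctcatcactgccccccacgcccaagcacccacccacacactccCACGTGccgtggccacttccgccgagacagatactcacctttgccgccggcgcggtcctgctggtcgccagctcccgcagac
The other 4 are the pairs with starts within 250 bases in which both names were only in the control list.
KCNJ2-AS1 (chr17:70169353-70169652, - strand): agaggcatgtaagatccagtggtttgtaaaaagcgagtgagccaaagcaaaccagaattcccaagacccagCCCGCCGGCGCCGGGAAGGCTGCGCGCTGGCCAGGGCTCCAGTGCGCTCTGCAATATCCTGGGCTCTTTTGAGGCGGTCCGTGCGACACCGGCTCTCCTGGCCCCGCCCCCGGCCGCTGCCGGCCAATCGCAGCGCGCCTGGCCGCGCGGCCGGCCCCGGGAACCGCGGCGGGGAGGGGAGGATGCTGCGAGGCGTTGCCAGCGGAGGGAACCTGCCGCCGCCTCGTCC
LMCD1-AS1 (chr3:8501609-8501908, - strand): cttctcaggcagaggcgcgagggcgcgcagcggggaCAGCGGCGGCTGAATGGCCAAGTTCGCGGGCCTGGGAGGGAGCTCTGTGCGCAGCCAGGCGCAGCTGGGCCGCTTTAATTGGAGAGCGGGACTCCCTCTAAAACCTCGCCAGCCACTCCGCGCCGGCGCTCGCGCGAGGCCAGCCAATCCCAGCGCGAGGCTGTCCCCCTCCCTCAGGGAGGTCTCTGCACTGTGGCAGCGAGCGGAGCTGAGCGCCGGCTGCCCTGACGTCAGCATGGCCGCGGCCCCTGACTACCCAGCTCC
WWTR1-AS1 (chr3:149657960-149658259, + strand): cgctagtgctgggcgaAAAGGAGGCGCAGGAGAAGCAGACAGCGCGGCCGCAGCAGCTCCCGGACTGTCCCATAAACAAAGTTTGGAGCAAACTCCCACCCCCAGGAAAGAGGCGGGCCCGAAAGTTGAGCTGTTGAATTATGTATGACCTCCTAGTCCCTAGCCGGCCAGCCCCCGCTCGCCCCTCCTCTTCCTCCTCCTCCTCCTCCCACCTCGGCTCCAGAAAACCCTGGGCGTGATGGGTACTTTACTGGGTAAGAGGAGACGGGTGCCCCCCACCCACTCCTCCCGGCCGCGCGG
LRRC3-AS1 (chr21:44455235-44455534, - strand): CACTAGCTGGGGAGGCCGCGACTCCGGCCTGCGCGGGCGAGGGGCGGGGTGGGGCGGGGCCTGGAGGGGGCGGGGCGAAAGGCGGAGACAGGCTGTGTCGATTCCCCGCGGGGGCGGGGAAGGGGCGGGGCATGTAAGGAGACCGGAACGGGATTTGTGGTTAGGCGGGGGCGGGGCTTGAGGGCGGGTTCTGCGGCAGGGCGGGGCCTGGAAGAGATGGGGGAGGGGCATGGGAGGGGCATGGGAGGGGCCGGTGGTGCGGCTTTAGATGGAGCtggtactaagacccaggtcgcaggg
The shared stretch held 251 bases for ARRDC3-AS1, 269 for LIPE-AS1, 168 for LPP-AS2, 229 for KCNJ2-AS1, 264 for LMCD1-AS1, 284 for WWTR1-AS1 and 275 for LRRC3-AS1. SH3RF3-AS1 was the only one of the 8 with CACGTG, the letters of the E-box recognised by MYC and MAX proteins, and held it 2 times. LPP-AS2 had the highest G and C content of the 8 (79.3%) and WWTR1-AS1 the lowest (63.3%).

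Of the 263 antisense names, each of which entered through a peak list, most were listed with both siRNAs. With WDR5 siRNA 229 antisense names were listed, and with control siRNA 263. All 229 were also in the control list, leaving 34 listed only with control siRNA, called control-only below. The control-only share was 12.9% (95% exact binomial interval 9.12 to 17.6%, which covers counting error over names only). Over all 13618 control-listed names it was 13.5%, which lies inside that interval. Antisense names made up 1.93% of either list. No antisense name was listed only with WDR5 siRNA, against 0.817% of all 11870 names in that list, and 0 of 229 allows a share of up to 1.31% (3 counts of the total, an upper limit on a single side, unlike the intervals). Of the 229, 11 stood in several rows of each list, among them FGD5-AS1, LEF1-AS1 and MAGI2-AS3, each with the same number of rows in either list.

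The antisense call was compared with the sense call. Sense genes were in the WDR5 siRNA list for 207 of 260 distinct sense names and in the control list for 229. Of these 229, 23 were control-only (10.0%, interval 6.47 to 14.7%). Where the sense gene was control-only, 15 of 23 antisense names were control-only too (65.2%, interval 42.7 to 83.6%). Where the sense gene was in both lists, 11 of 208 antisense names were control-only (5.29%, interval 2.67 to 9.27%). These intervals did not overlap, and the share over all control-listed names was 13.5%. Of the 15 pairs control-only together, 10 had starts within 1 kb, where a single peak can give both calls. Where the sense gene was in neither list, 8 of 31 antisense names were control-only (25.8%, interval 11.9 to 44.6%). Antisense and sense names had the same call in 212 of the 232 pairs with the sense gene in a list (91.4%, interval 87.0 to 94.7%). The sense gene was in both lists in 208 of the 232 pairs, and 87.1% of all antisense names were in both lists. Many pairs would therefore have the same call without any link between the names.

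**Figure D1:**
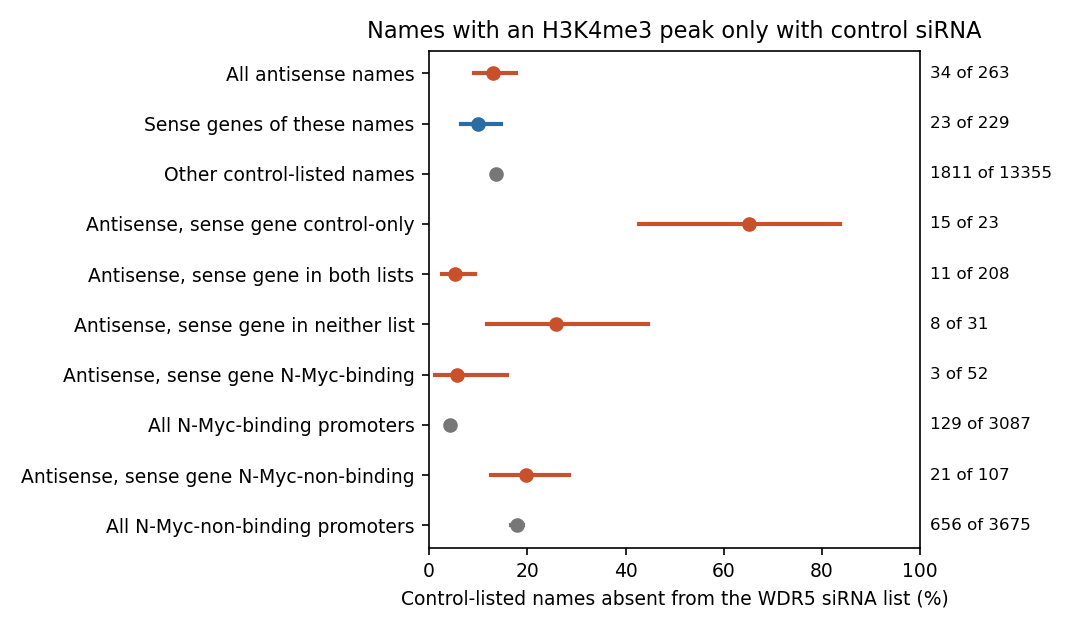
Share of control-listed names absent from the WDR5 siRNA list (x axis, percent), with exact 95% binomial intervals over names as lines. Red points are antisense names, split by the sense gene's call and N-Myc class, blue is their sense genes and grey is other names; the antisense share was 65.2% beside control-only sense genes and 5.29% beside sense genes in both lists.

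**Figure D2:**
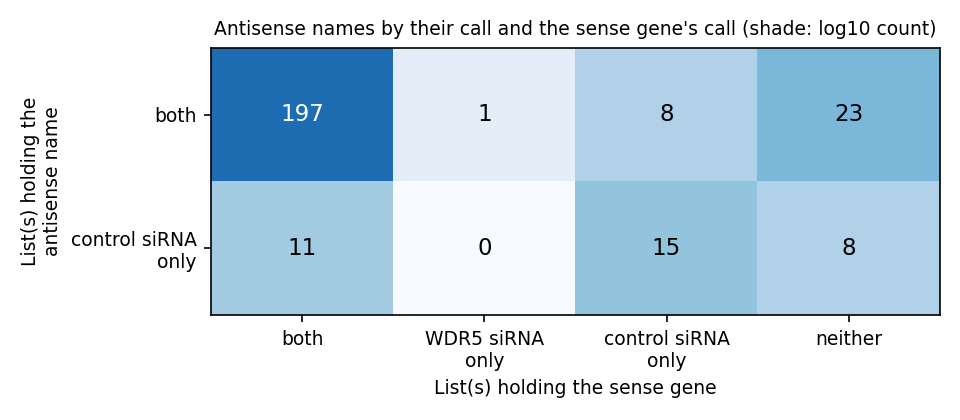
Number of antisense names by the list or lists holding the antisense name (rows) and its sense gene (columns), with shade as log10 of the count plus 1. The largest cell is the 197 pairs with both names in both lists, and 15 pairs had both names control-only.

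Close neighbours in the list can share a call whatever their names, so the sense gene was set beside the other neighbour. The control list runs in genome order, and the sense gene was the adjacent name for 220 of 231 antisense names with a control-listed sense gene. Over these 220, the antisense name was control-only in 15 of 22 cases with a control-only sense gene (68.2%, interval 45.1 to 86.1%). With a control-only neighbour on the other side it was control-only in 3 of 22 (13.6%, interval 2.91 to 34.9%). The distance to that other neighbour was not measured, so it is not matched to the sense gene in distance. Whether a peak shared with the sense gene gives this difference was not tested. Over all control names, 21.7% of the neighbours of a control-only name were control-only, and 12.3% of the neighbours of a name in both lists were.

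The 15 pairs that were control-only together included regulators, channels and signalling genes. WWTR1-AS1 lies beside WWTR1 (TSS on chromosome 3, position 149375812, hg19), which encodes the co-activator TAZ. ZEB2-AS1 lies beside ZEB2 (chromosome 2, position 145277958), a zinc finger repressor of epithelial genes that also acts in neural crest cells, and its RNA is known to overlap the ZEB2 splice site. THRB-AS1 lies beside THRB (chromosome 3, position 24536313), which encodes the thyroid hormone receptor beta. KCNJ2-AS1 and KCNJ2 (chromosome 17, position 68165676), an inward rectifier potassium channel, and CACNA1G-AS1 and CACNA1G (chromosome 17, position 48638429), a T-type calcium channel, were control-only as pairs. So were SLC26A4-AS1 and SLC26A4 (chromosome 7, position 107301080), which encodes the anion exchanger pendrin. The others were the antisense names of ALDH1L1, a folate enzyme gene, LGALS8, which encodes a galectin, LMCD1, LRRC3, PVRL3, which encodes the adhesion molecule nectin-3, RAMP2, a receptor activity-modifying protein gene, RAPGEF4, which encodes the cAMP sensor EPAC2, SAMD12 and VAV3, a guanine nucleotide exchange factor gene. Each of these 30 names had a peak call with control siRNA and none with WDR5 siRNA. In 10 of the 15 pairs the starts lay within 1 kb, so a single peak can be counted under both names.

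In 11 pairs the antisense name was control-only while the sense gene was in both lists. They were BRWD1-AS1, FAM222A-AS1, FOXD2-AS1, HM13-AS1, KDM5B-AS1, MAP3K14-AS1, RNF157-AS1, SH3RF3-AS1, SMAD5-AS1, ZNF503-AS1 and ZNRF3-AS1. Their sense genes include FOXD2, a forkhead factor, KDM5B, a demethylase that removes H3K4 methylation, SMAD5, a transducer of BMP signals, MAP3K14, the NF-kappaB inducing kinase, and ZNRF3, a ubiquitin ligase that removes WNT receptors from the membrane. KDM5B-AS1 is now named PCAT6 in RefSeq. ZNF503 has 2 antisense names, and ZNF503-AS2 was in both lists while ZNF503-AS1 was control-only. The other sense names with 2 members, HOXD and ZRANB2, had both members in both lists.

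The reverse, an antisense name in both lists, held for 8 of the 23 pairs with a control-only sense gene (34.8%, interval 16.4 to 57.3%). By comparison, 87.1% of all antisense names were in both lists. The 8 were ADAMTS9-AS2, ASB16-AS1, BZRAP1-AS1, CRYM-AS1, GNAS-AS1, LRP4-AS1, PRKG1-AS1 and SNAI3-AS1. For 7 of the 8 the distance between the starts was not known. GNAS encodes the stimulatory G protein alpha subunit at an imprinted locus with several promoters, and PRKG1 a cGMP-dependent kinase. A further pair had the sense gene only in the WDR5 siRNA list, ARRDC3-AS1 with ARRDC3, an arrestin-domain gene. ARRDC3-AS1 itself was in both lists although its RefSeq start lies only 250 bases from that of ARRDC3. Of the 31 antisense names whose sense gene was in neither list, 15 had a sense name found in none of the files, such as the cluster names HOXC and HOXD. The 8 control-only names among the 31 were CD27-AS1, COL18A1-AS2, DNAJB8-AS1, ENTPD1-AS1, LPP-AS2, NEBL-AS1, SHANK2-AS1 and UPK1A-AS1. TTN-AS1, whose sense gene encodes the muscle protein titin, A2M-AS1, FGD5-AS1 and MAFG-AS1 were among the 23 in both lists.

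Antisense and sense calls were alike more often where the starts lay close together. In the RefSeq table the closest starts of antisense RNA and sense gene lay within 1 kb in 125 of 184 pairs (67.9%), with a median of 185 bases among these 125 and of 384 bases over all 184. The antisense start lay upstream of the sense start, as in a divergent promoter, in 82 of the 125. Within 1 kb the calls were the same in 119 of 121 pairs with the sense gene in a list (98.3%, interval 94.2 to 99.8%). The 2 exceptions were SH3RF3-AS1 and ARRDC3-AS1. Both names were in both lists in 109 of the 119 pairs. All 10 close pairs with a control-only sense gene had a control-only antisense name, while 1 of 110 with the sense gene in both lists did. Beyond 1 kb the calls were the same in 38 of 45 pairs (84.4%, interval 70.5 to 93.5%). Both names were in both lists in 36 of these 38. At this distance 2 of 3 antisense names with a control-only sense gene were control-only (interval 9.43 to 99.2%). There 6 of 42 antisense names were control-only beside a sense gene in both lists (14.3%, interval 5.43 to 28.5%), against 0.909% within 1 kb (interval 0.0230 to 4.96%). The share beyond 1 kb lay near the 13.5% of all control-listed names. Where the distance was not known the calls were the same in 55 of 66 pairs (83.3%, interval 72.1 to 91.4%), with both names in both lists in 52 of these. Here 3 of 10 antisense names with a control-only sense gene were control-only (interval 6.67 to 65.2%). With the sense gene in both lists 4 of 56 were (7.14%, interval 1.98 to 17.3%), an interval that overlapped those at either distance. The 6 beyond 1 kb were SMAD5-AS1 (2045 bases from the SMAD5 start), KDM5B-AS1 (2533 bases), FOXD2-AS1 (3403 bases), MAP3K14-AS1 (54940 bases), FAM222A-AS1 (59662 bases) and ZNF503-AS1 (105381 bases).

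**Figure D3:**
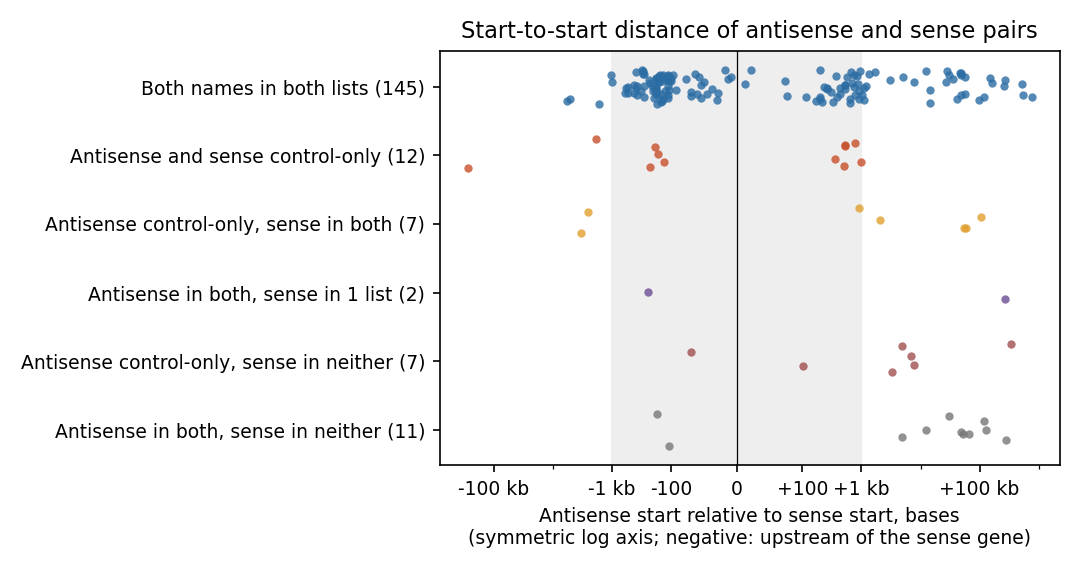
Distance from the sense start to the antisense start (x axis, bases on a symmetric log scale, negative upstream of the sense gene) for 184 pairs, 1 point per pair, grouped by the calls of both names, with the grey band marking 1 kb either side. Of the 7 pairs with a control-only antisense name and the sense gene in both lists, 1 lies inside the band, against 10 of the 12 pairs that were control-only together. Over all 184 pairs, 125 (67.9%) lie inside the band.

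Close pairs of other promoters served as a comparison on the build of the files. The promoter tables of the series held 291 pairs of starts within 1 kb on hg19, none with an antisense name, and the call was the same in all 291. In 284 of them both names were control-listed, but only 18 names in these 284 pairs were control-only, each with a control-only partner. Antisense names with a close sense start were control-only in 13 of 125 cases (10.4%, interval 5.65 to 17.1%), and those with a start beyond 1 kb in 13 of 59 (22.0%, interval 12.3 to 34.7%), so these intervals overlapped. Of the 34 names now called divergent transcripts, 1, LRRC3-AS1, was control-only (2.94%, interval 0.0744 to 15.3%). Of the 212 names that still end in -AS, 32 were control-only (15.1%, interval 10.6 to 20.6%). These intervals overlapped, and both held the 13.5% of all control-listed names. All 30 divergent transcripts with known starts lay within 1 kb of the sense start, against 91 of 148 of the names in -AS. RefSeq positions are on another build and a later annotation than the lists, so a close pair there need not be the pair of starts that the authors used.

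The N-Myc class of the sense gene gave a further split. N-Myc is the MYC-family factor encoded by MYCN. Among antisense names with an N-Myc-binding sense promoter, 3 of 52 were control-only (5.77%, interval 1.21 to 15.9%), beside 4.18% of all control-listed N-Myc-binding promoters. The 3 were BRWD1-AS1, HM13-AS1 and PVRL3-AS1. Among those with a non-binding sense promoter, 21 of 107 were control-only (19.6%, interval 12.6 to 28.4%), beside 17.9% of all control-listed non-binding promoters. Sense genes themselves were control-only in 2 of 49 cases (4.08%) in the binding table and in 18 of 93 (19.4%) in the non-binding table. Where the sense gene was in neither table, 10 of 104 antisense names were control-only (9.62%, interval 4.71 to 17.0%), beside 15.5% of all control-listed names outside the tables. Sense genes in neither table were control-only in 3 of 87 cases (3.45%, interval 0.717 to 9.75%), below that share of all names. In the binding and non-binding classes the antisense shares lay near those of all names, and the intervals of these classes overlapped. In the non-binding table the sense gene's row lay at a median of 52.4% of the table length for the 21 control-only antisense names and 22.8% for the 86 in both lists. In the binding table it ran the other way, at 27.1% for the 3 control-only antisense names and 48.5% for the 49 in both lists. The order of rows carries no stated meaning.

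By the function of the sense gene, 79 names fell into 7 groups drawn up with the calls known, so their counts describe these names only. They stand beside 87.1% of all antisense names in both lists and 13.5% of all control-listed names control-only. Antisense names at RNA processing and translation genes were in both lists in 16 of 16 cases, near the share of all antisense names, for example EIF3J-AS1, RPL34-AS1 and PCBP1-AS1. Likewise 8 of 8 at genes of DNA replication, repair and mitosis were in both lists, among them RAD21-AS1, MCM3AP-AS1 and DDX11-AS1, whose RNA is known to act in sister chromatid cohesion. Of 10 at neuronal genes, 9 were in both lists, with MAPT-AS1 (tau), SNAP25-AS1 (a vesicle fusion protein), BDNF-AS (a neurotrophin) and UCHL1-AS1 (a neuronal deubiquitinase), and SHANK2-AS1 was control-only. Chromatin genes had 11 of 13 in both lists, ASH1L-AS1, KDM4A-AS1 and SETD5-AS1 among them, with BRWD1-AS1 and KDM5B-AS1 control-only while all 13 sense genes were in both lists. Transcription factor genes had 14 of 18 in both lists, including GATA3-AS1, WT1-AS, TP73-AS1, MEIS1-AS3 and NR2F2-AS1, and 4 control-only. ZNF names had 7 of 8 in both lists. At channels and transporters CACNA1G-AS1, KCNJ2-AS1 and SLC26A4-AS1 of 6 names were control-only, with their sense genes, a count too small to set against the share of all names.

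Of 29 known antisense RNAs looked for by name, 8 were in both lists and 21 in neither. The 8 were GATA3-AS1, TP73-AS1, CDKN2B-AS1 (ANRIL, at the CDKN2A and CDKN2B locus), DDX11-AS1, UCHL1-AS1, WT1-AS, HOXD-AS1 and MEIS1-AS3. Of the 21 others, 9 had a sense gene in both lists, such as HAND2-AS1, GATA2-AS1 and DLX6-AS1, and 2, FOXD3-AS1 and SOX21-AS1, had a control-only sense gene. A name in neither list can lack a peak or carry another name in the authors' annotation. Among other types of name, 19 of 70 LINC names were control-only (27.1%, interval 17.2 to 39.1%), 6 of 28 host gene names ending in HG (21.4%, interval 8.30 to 41.0%) and 0 of 7 opposite strand names ending in OS. The 7 include MYCNOS, the transcript antisense to MYCN, which was in both lists. The LINC interval lay above the 13.5% of all control-listed names, while the HG interval held that share. The antisense interval (9.12 to 17.6%) met the LINC interval only at the upper end of the antisense one.

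Start windows of control-only antisense names had a lower median CpG content, with overlap between the calls. For the 29 control-only antisense names with a RefSeq window the median ratio of observed to expected CpG, a measure of CpG islands, was 0.668 (middle 50% of names 0.430 to 0.770). For the 179 in both lists it was 0.821 (0.670 to 0.952). The median G and C content was 63.3% and 67.0%. Over all names the medians ran the same way but closer together, at 0.765 for 1231 control-only names and 0.859 for 9157 in both lists. All 27305 genes of the table had a median of 0.580. The lowest ratios among control-only antisense names were those of ZNRF3-AS1 (0.192), ZNF503-AS1 (0.197), DNAJB8-AS1 (0.251) and SMAD5-AS1 (0.290), and 3 of these 4 have a sense gene in both lists. Still lower ratios belonged to antisense names in both lists, such as RNF219-AS1 (0), UNC5B-AS1 (0.112) and LOXL1-AS1 (0.122). The E-box CACGTG, which reads the same on both strands, lay in 25 of the 208 antisense windows (12.0%, interval 7.93 to 17.2%) and in 7.43% of all windows of the table. Among windows of listed names the share was closer, at 10.7% for sense genes in both lists, 10.6% for all names in both lists and 8.12% for all control-only names, each inside the antisense interval. For control-only sense genes it lay in 0 of 14 windows (interval 0 to 23.2%). In the 250 bases before the start alone it lay in 9.62% of the antisense windows. There the share was 9.42% for all names in both lists and 6.49% for all windows. No test was made, since windows overlap those of sense genes and names are no replicates of a condition.

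**Figure D4:**
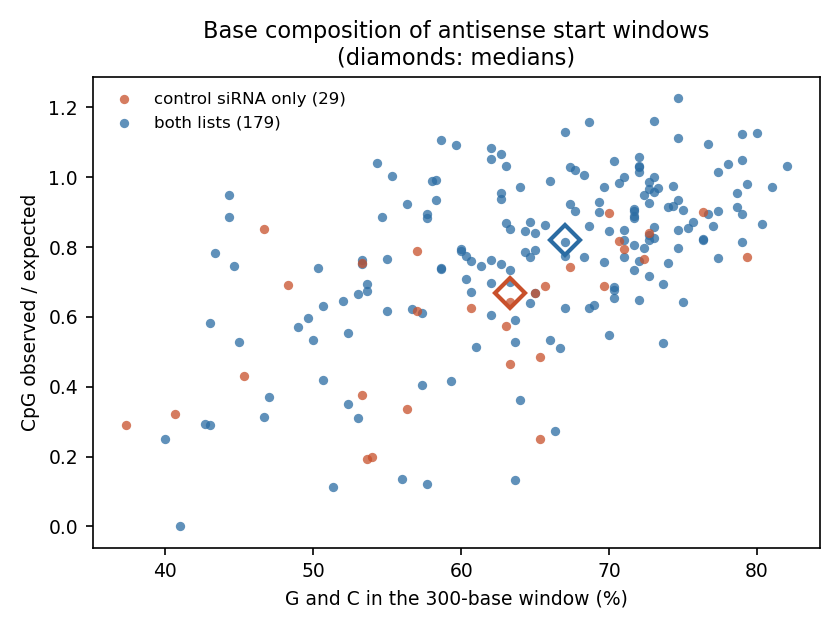
G and C content (x axis, percent) and ratio of observed to expected CpG (y axis) of the 300-base start windows of 208 antisense names, 1 point per name, with medians as open diamonds. The 29 control-only names (red) had a median ratio of 0.668 and the 179 names in both lists (blue) a median of 0.821, with wide overlap.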

How the data were processed

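ChIP-seq was made from 6 libraries, and 3 processed files were used. BWA 0.7.12, bedtools and the build hg19 are named, without roles, per the submitters' processing notes. The sources name no role for the IgG and input libraries, and the peak caller and its threshold were not given in the sources used here. Per the file headers, the deposited peak file holds names with an H3K4me3 peak within 1 kb of a TSS, and the promoter tables hold TSS positions and names. The deposited columns hold no measured unit, so depth and precision are unknown, and intervals cover counting error over names only.

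Names were reduced to distinct names and classed by list. Samples were grouped by siRNA and antibody in the labels, and column names gave the lists' libraries. Sense genes were matched by exact name. The promoter tables held no antisense name, so planned values that needed one were taken from sense genes or the RefSeq table (GRCh38.p14, sequences credited to RefSeq). Base composition used the first RefSeq start of a name and distance the closest starts, and 208 of 263 names matched that table. With 1 library per siRNA no test was possible. The counting was tested on simulated data. Members, function groups and lists were chosen with earlier results of these data known. Named were members listed in 1 library only, those whose sense gene was listed in 1 library only, members with sisters of unlike call, and 29 known examples. Sequences of pairs that were control-only together were added to those of pairs with unlike calls. Other names are examples chosen after their calls were seen. Python 3.11.15, pandas 2.3.3, numpy 2.4.6, scipy 1.17.1 and matplotlib 3.10.9 were used.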

Additional observations from a re-analysis of the deposited data

How the results depend on the processing

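No paired analysis was possible because each siRNA had 1 H3K4me3 library, and no replicate could be left out. The antisense control-only share lay between 12.1 and 15.2% over its 7 alternatives (rows as deposited, single-row names, a wider pattern, 1 name per sense gene, sense gene named in the files, and, chosen after the data were seen, current -AS symbols and no close pairs), all inside the interval of the main value. The share of pairs with the same call was 83.8% without pairs whose starts lie within 1000 bases, 82.4% without those within 2000 bases, and 80.6% with sense genes in neither list counted as different (chosen after the data were seen), against 91.4% in the report. The share of close pairs was 53.3% at 500 bases and 58.2% with the first listed start of each name (chosen after the data were seen), against 67.9% in the report. In all, 13 of 18 alternatives stayed inside the interval of the main value. Alternatives on the members' own promoter rows or N-Myc class were not run because neither promoter table holds an antisense name.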

Other observations

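By RefSeq chromosome, a split made after the calls were seen, chromosome 3 held the most antisense names, with 7 of 32 control-only, beside 12.2% of all control-listed names there. Chromosome 17 had 5 of 18 (15.2% of all names) and chromosome 21 had 3 of 7 (10.7% of all names). Chromosomes 13 and 15, the only ones with 12 or more antisense names and none control-only, had 0 of 12 and 0 of 13 (10.1% and 11.8% of all names).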
